A study of Homo sapiens with 2 samples.

Results

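The genes described here are 39 genes of DNA replication and the cell cycle that are known as targets of, or partners to, the E2F transcription factors. They were taken from a given list of gene symbols and placed by their RefSeq gene spans on hg38, and all 39 were found among 20037 protein-coding genes. The rule itself uses no measured value. DNase-seq was done on Saos-2 and U2OS, 2 established human cell lines from osteosarcoma, with 1 library for each line and no treatment named in the labels. In this assay DNase I cuts nuclear DNA where nucleosomes do not shield it, and a region with a local excess of cuts is called a hotspot. Saos-2 lacks functional RB1, the retinoblastoma protein, and U2OS is known to keep it, and the question was whether the starts of these genes differ between the lines. The lines also differ in much else besides RB1, so a difference between them cannot be told apart from those other differences.

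RB1 and its relatives RBL1 and RBL2 bind E2F factors and hold E2F target genes down until cyclin-dependent kinases phosphorylate them at the end of G1. E2F1, E2F2 and E2F3 then act mainly as activators, and E2F7 and E2F8 as repressors that act later in the cycle. A further set of genes, needed for mitosis, is kept quiet through the DREAM complex, which binds a short element called CHR, and is switched on with the help of MYBL2 and FOXM1. Promoters of both sets often carry CCAAT boxes, which bind the factor NF-Y.

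The Saos-2 list held 51556 hotspots over 14.2 Mb, and the U2OS list 63388 hotspots over 17.8 Mb, 1.25 times as many bases. Each hotspot carries the authors' significance as a −log10 value, with a minimum of 1.3 and a cap of 100, and its median was 4.05 in Saos-2 and 4.60 in U2OS. The depth of the libraries is unknown from these lists, and a region that did not reach the false discovery rate of 0.05 is not listed at all, so "no hotspot" below means only that none was listed. Since each line has 1 library, spread between replicates is unknown, no test was made, and every difference is between these 2 libraries. Among genes of the osteoblast lineage, RUNX2, BGLAP and SPARC had a hotspot within 1 kb of a start in both lines, ALPL in Saos-2 only, COL1A1 in U2OS only, and COL1A2, IBSP, SP7 and SPP1 in neither. Several of these were near the minimum. The strongest was at 12.5 in Saos-2 and 1.59 in U2OS for RUNX2, 2.49 and 1.84 for BGLAP, and 1.71 and 2.28 for SPARC. Of 18 marker genes of other tissues, 4 had one in both lines, 4 in U2OS alone, 10 in neither and 0 in Saos-2 alone. Over all protein-coding genes these shares were 43.3%, 10.1%, 41.8% and 4.79%.

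Promoter sequences from RefSeq (GRCh38.p14) were at hand for 32 of the 39 genes, and 8 of these had more than 1 listed start. They were searched on both strands, from 250 bases before to 50 bases after each start, for 3 kinds of element. The E2F words were TTTCGCGC, TTTGGCGC, TTTCCCGC, TTTGCCGC, TTCCCGCC and GGCGCGAA, which can overlap one another. The CHR words were TTTGAA and TTCGAA, and the CCAAT box was the word CCAAT. An E2F word was found in 17 of the 32 genes (53.1%, Wilson 95% interval 36.4 to 69.1), against 10.1% of all 15860 protein-coding gene entries with a promoter sequence. A CCAAT box was found in 26 (81.3%) against 42.1%, and a CHR word in 8 (25.0%) against 17.5%. E2F words were thus found more often than in promoters at large, and the CHR share was the nearest to the share over all promoters. A match is a run of letters, not a measured binding site.

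To show what such promoters look like, 4 whose E2F words lay under hotspots in both lines are printed. Each is given as the 250 bases before the start, 5′ to 3′ on the gene's strand, with E2F words in capitals. E2F1 encodes the best-known activator of the family, MCM6 and MCM3 encode subunits of the replicative helicase, and TYMS encodes thymidylate synthase. MCM6 had the highest count, with 6 overlapping words in this stretch.
E2F1, chr20:33686386-33686635, minus strand: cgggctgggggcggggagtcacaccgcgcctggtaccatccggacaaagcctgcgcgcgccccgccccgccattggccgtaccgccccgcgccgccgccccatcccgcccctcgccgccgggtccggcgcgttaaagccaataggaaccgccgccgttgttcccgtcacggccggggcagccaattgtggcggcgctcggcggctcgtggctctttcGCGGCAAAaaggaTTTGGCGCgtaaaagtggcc
MCM6, chr2:135876444-135876693, minus strand: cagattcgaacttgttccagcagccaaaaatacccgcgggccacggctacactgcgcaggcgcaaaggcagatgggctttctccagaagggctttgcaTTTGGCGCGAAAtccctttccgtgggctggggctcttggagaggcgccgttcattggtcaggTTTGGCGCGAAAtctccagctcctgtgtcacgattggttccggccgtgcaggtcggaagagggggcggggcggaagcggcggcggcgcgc
MCM3, chr6:52284743-52284992, minus strand: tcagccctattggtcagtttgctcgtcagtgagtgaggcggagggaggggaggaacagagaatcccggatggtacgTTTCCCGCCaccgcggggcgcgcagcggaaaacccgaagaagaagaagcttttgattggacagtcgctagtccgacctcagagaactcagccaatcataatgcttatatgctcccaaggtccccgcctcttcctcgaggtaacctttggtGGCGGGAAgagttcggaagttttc
TYMS, chr18:657403-657652, plus strand: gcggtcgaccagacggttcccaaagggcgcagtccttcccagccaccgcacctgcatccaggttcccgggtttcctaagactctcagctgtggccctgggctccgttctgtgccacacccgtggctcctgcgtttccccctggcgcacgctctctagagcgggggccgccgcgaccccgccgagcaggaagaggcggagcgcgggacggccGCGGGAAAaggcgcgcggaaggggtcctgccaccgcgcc

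Another pair carried E2F words in capitals but had no hotspot at the start in either line: CDT1, which loads the MCM helicase at origins, and E2F2, an activator of the family.
CDT1, chr16:88803539-88803788, plus strand: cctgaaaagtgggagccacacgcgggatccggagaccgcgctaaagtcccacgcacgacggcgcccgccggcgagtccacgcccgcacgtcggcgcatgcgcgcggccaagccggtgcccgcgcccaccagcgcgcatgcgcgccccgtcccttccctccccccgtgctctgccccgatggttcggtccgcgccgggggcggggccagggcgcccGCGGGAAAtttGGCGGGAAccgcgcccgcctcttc
E2F2, chr1:23531234-23531483, minus strand: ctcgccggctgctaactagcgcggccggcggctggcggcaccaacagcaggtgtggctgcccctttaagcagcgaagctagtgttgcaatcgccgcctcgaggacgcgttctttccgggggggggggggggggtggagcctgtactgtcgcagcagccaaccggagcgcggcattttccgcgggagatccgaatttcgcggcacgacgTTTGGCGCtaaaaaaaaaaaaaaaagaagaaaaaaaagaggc

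The next pair had a start hotspot in U2OS only. CCNE1 encodes cyclin E1, and RRM2 the small subunit of ribonucleotide reductase. Neither holds any of the E2F words searched in the window. The capitals mark CCAAT boxes on either strand, of which RRM2 has 3 in this stretch and CCNE1 has 0.
CCNE1, chr19:29811741-29811990, plus strand: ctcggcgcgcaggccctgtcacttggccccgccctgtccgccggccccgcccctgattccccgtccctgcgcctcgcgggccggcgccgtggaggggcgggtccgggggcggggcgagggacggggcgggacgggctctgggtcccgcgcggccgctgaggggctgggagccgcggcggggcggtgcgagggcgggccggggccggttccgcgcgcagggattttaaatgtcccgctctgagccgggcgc
RRM2, chr2:10122489-10122738, plus strand: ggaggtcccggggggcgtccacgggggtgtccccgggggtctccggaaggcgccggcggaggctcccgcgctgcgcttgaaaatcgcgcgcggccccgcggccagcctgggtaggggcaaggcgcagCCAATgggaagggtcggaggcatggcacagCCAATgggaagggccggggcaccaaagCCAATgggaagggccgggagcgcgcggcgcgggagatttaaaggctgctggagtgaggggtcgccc

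For the mitotic genes, PLK1 and TOP2A are printed with CHR words and CCAAT boxes in capitals. PLK1 encodes a mitotic kinase and TOP2A encodes topoisomerase II alpha, and both promoters lay wholly under hotspots in both lines.
PLK1, chr16:23678639-23678888, plus strand: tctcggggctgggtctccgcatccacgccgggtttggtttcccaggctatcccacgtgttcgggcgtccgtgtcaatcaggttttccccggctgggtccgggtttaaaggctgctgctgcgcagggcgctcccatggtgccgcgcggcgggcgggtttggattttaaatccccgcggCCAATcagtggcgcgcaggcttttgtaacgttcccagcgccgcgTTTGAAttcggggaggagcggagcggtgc
TOP2A, chr17:40417897-40418146, minus strand: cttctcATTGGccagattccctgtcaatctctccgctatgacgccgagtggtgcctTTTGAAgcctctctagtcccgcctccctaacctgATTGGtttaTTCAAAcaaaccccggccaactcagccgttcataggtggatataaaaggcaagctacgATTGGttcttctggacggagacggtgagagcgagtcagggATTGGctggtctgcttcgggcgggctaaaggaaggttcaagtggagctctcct

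A start hotspot is a hotspot within 1 kb of a listed start, or, for the 7 genes without a listed start (E2F8, CCNE2, CDK2, MCM4, MCM5, FOXM1 and AURKA), within 1 kb of either end of the gene span. Both lines had a start hotspot at 32 of the 39 genes (82.1%, Wilson 95% interval 67.3 to 91.0, counting error only), against 43.3% of all protein-coding genes. CCNE1, RRM2 and FOXM1 had one in U2OS only, against 10.1% of all genes. None had one in Saos-2 only, against 4.79% of all genes. A count of 0 of 39 allows a share of up to 7.69%, so the background share lies within that limit. E2F2, CDT1, MYBL2 and AURKB had none in either line, against 41.8% of all genes. Many genes at large have no start hotspot in either line, so the count was repeated without them. Of the genes with a start hotspot in either line, 32 of 35 (91.4%, interval 77.6 to 97.0) had one in both, against 74.4% of all genes, and among all such genes 17.4% had one in U2OS only and 8.23% in Saos-2 only. The start hotspots of the 2 lines overlapped by at least 1 bp in 32 of 32, against 98.8% of all genes with one in both. With the U2OS list shortened to its 51556 strongest hotspots, as many as Saos-2 has, both lines had one at 32 genes (41.5% of all genes), U2OS only at 2 (7.86%) and Saos-2 only at 0 (6.62%). With both ends of every gene span in place of the listed starts, the counts were 31 (42.7%), 3 (10.5%) and 0 (5.07%), ORC1 having joined the genes with none.

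**Figure D1:**
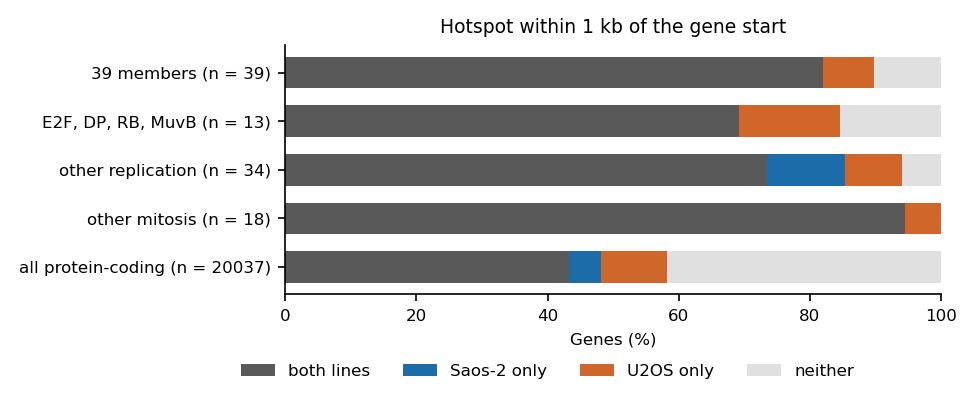
Bars give the percentage of genes (x axis, 0 to 100%) with a hotspot within 1 kb of a gene start in both lines, in 1 line or in neither, for the 39 genes, for 3 other lists of the pathway and for all protein-coding genes, with the number of genes beside each name. The 39 genes are at 82.1% for both lines, and all protein-coding genes at 43.3%.

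By role, both lines had start hotspots at 4 of 5 E2F factors, 4 of 5 genes of G1/S cyclins and kinases, 11 of 12 genes of origin licensing and firing, 6 of 7 genes of DNA synthesis and nucleotide supply, and 7 of 10 late-cycle and mitotic genes. The 3 genes with a start hotspot listed in U2OS only fell in 3 different roles, and the 4 without a start hotspot in 3 roles. Among the 32 genes with a listed start, another protein-coding gene starts within 1 kb on the other strand at 8 (beside E2F3, MCM2, MCM7, ORC1, ORC6, PCNA, POLE and TK1), and all 8 had hotspots in both lines. A hotspot at these 8 starts cannot be assigned to 1 gene of the pair.

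Where both lines had a start hotspot, the strongest one stood in nearly the same place. The shared part of the pair was 81.0% of their union at the median of the 32 genes, with a range from 35.9% at TYMS to 99.5% at PCNA. Their centres lay 19.75 bp apart at the median and at most 107 bp apart. In the 26 genes with a listed start, the strongest hotspot covered a listed start in 25 in each line, TYMS being the exception in each. Its centre lay at −110.5 bp from the start at the median in Saos-2 and at −112 bp in U2OS, where negative values are before the start. The median width was 399 bp (191 to 900) in Saos-2 and 450.5 bp (270 to 959) in U2OS, and the U2OS hotspot was the wider at 23 of 32 genes, against 60.9% of all genes with start hotspots in both lines.

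**Figure D2:**
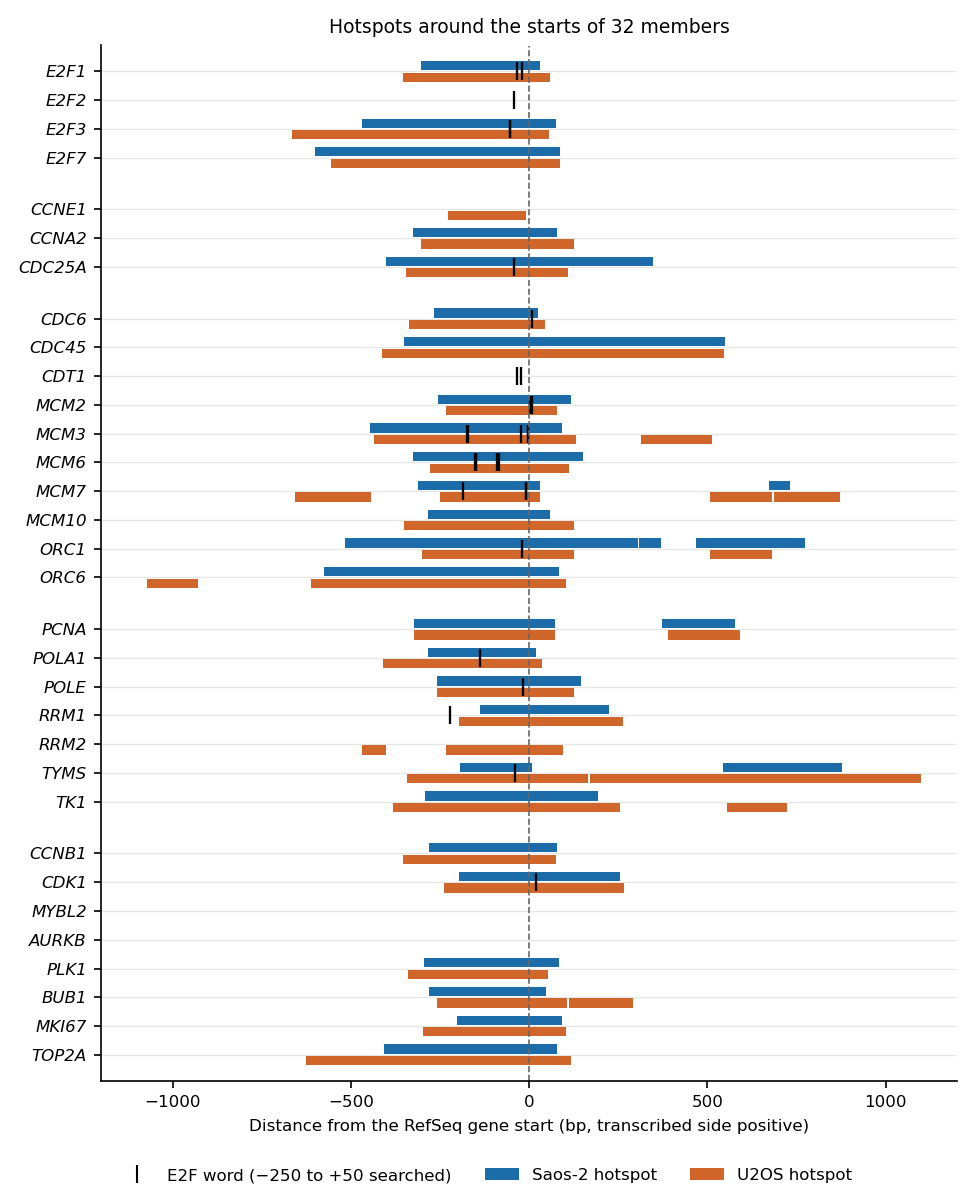
Each row is 1 of the 32 genes with a listed start, and bars show Saos-2 (blue) and U2OS (orange) hotspots by distance from the start in bp, with the transcribed side positive and E2F words as black ticks. For a gene with several listed starts, the start shown is the listed start nearest its strongest hotspots. Bars of both colours cross the start line in most rows, CCNE1 and RRM2 have orange bars alone, and E2F2, CDT1, MYBL2 and AURKB have none.

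The start hotspots of these genes were also strong ones. Over the 32 genes the median significance was 14.0 (3.11 to 57.2) in Saos-2 and 15.8 (5.16 to 85.2) in U2OS, against 7.73 and 10.4 over all genes with both. Among the strongest 10% of all hotspots of their list were 17 of 32 in Saos-2 and 15 of 35 in U2OS, where 23.6% and 24.0% of all genes with a start hotspot reached that class. The U2OS value was higher at 23 genes and the Saos-2 value at 9, against 66% and 34% of all genes. Because significance grows with depth, each hotspot was also given its rank within its own list, as a percentile. By rank, U2OS was higher at 20 genes and Saos-2 at 12, against 56% and 44% of all genes. The median rank difference, U2OS minus Saos-2, was 2.28 percentile points, with a 95% order-statistic interval over genes of −2.45 to 8.72 (n = 32 genes, which are not replicates), and it was 1.61 over all genes. The interval holds both 0 and the value for all genes. Single genes differed in rank in both directions, by up to 27.8 points. The size of the difference, without its sign, was 6.09 points at the median of the 32 genes and 12.1 points at that of all genes, and it was at least 10 points at 11 of 32 genes against 55.2% of all genes. Ranks near the top of a list, where many of these starts lay, have little room to rise. Across the 32 genes the significance in the lines had a Spearman rho of 0.73, and 0.62 across all genes, which is a description only, since each library contributes to every gene.

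**Figure D3:**
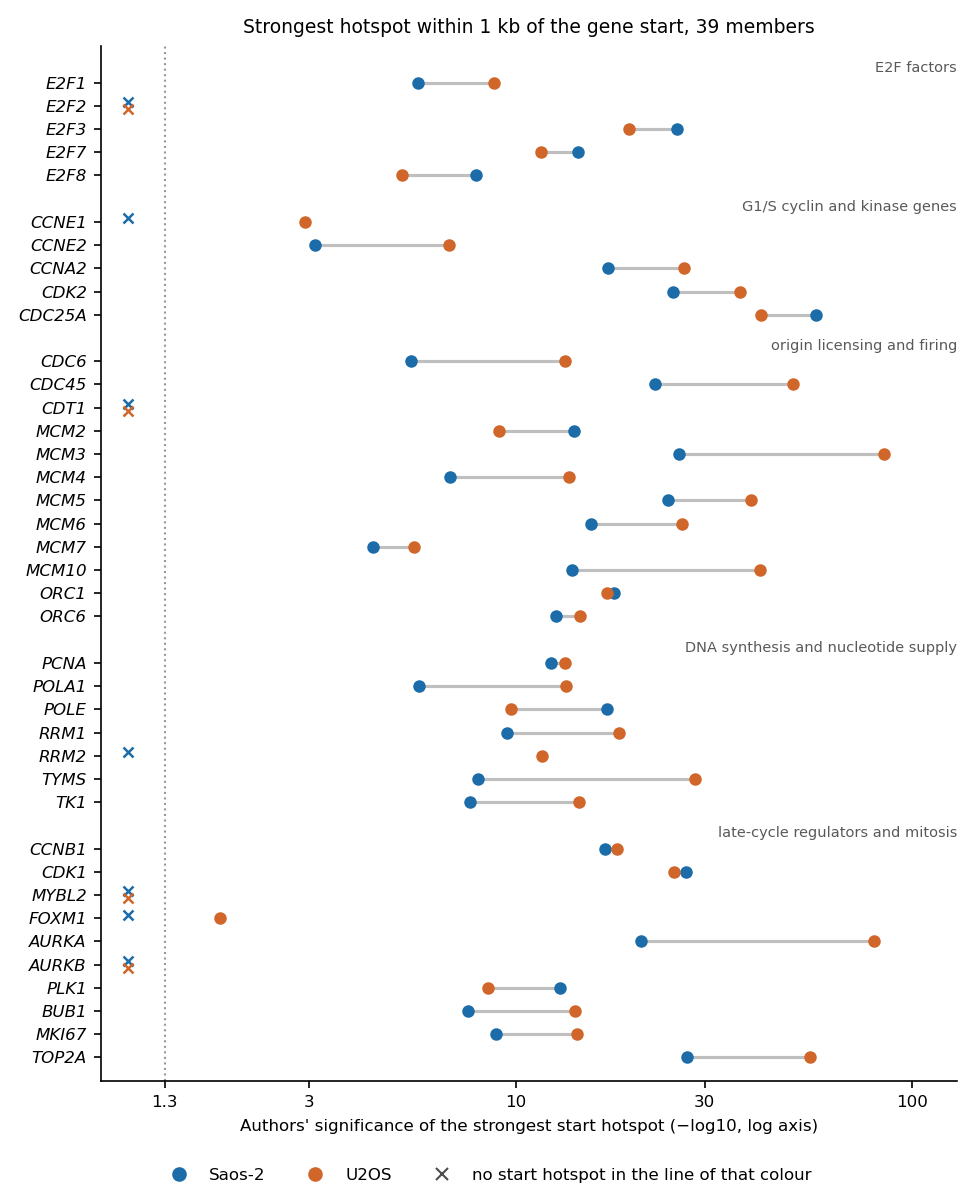
The authors' significance of the strongest start hotspot (x axis, −log10, log scale) is shown for each of the 39 genes in Saos-2 (blue) and U2OS (orange), ordered by role, with crosses for a line without a start hotspot. U2OS points lie further right at 23 genes and Saos-2 points at 9, and the widest gaps toward U2OS are at MCM3, AURKA and TYMS.

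Among the E2F factors, the strongest start hotspot of E2F1 reached 5.66 in Saos-2 and 8.80 in U2OS, as −log10 significance here and in the paragraphs that follow. E2F3, the third activator, had 25.5 and 19.4, and the repressor E2F7 had 14.3 and 11.6. The repressor E2F8 had 7.93 and 5.16, at the higher-coordinate end of its span. In rank, E2F8 stood at percentile 76.3 in Saos-2 and 54.5 in U2OS, a difference of −21.8 points. The difference, U2OS minus Saos-2, was −9.33 points at E2F7, −5.64 at E2F3 and 9.44 at E2F1. So 3 of the 4 E2F genes with a start hotspot ranked higher in Saos-2, against 44% of all genes with start hotspots in both lines. The median difference of the 4 was −7.48 points, the only negative median of the 5 roles. With 4 genes, this count and median are a description only. Inside E2F8 (chr11:19224063-19241655), U2OS had a hotspot at chr11:19232879-19233359 with a significance of 24.8 that no Saos-2 hotspot overlapped, the strongest such U2OS hotspot within 10 kb of any of the 39 genes. E2F7 likewise had 3 U2OS hotspots inside the gene, at 4.26, 5.33 and 3.56, that Saos-2 lacked, which took its covered bases within 1 kb of the span from 803 bp (Saos-2) to 1429 bp (U2OS). E2F2 (chr1:23505212-23531233) had no start hotspot, but both lines had one inside the gene, centred 2855 bp from the start in Saos-2 at a significance of 4.65 and overlapped by a U2OS hotspot at 5.09.

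Among the G1/S genes, CDC25A, the phosphatase that activates CDK2, had the highest significance of the 39 in Saos-2, 57.2, and 41.5 in U2OS, and its covered bases within 1 kb were 749 bp and 454 bp. CCNA2, cyclin A2, had 17.1 and 26.7. CDK2, the partner kinase of cyclins E and A, had 24.9 and 36.8 at the higher-coordinate end of its span. Its other end had a weaker hotspot, at 2.31 in Saos-2 and 4.56 in U2OS, and the gene's start was not among those listed. The stronger pair lay outside the span, past its higher-coordinate end, so it need not mark the start of CDK2. The medians, ranks and figures nevertheless use that pair for CDK2. By the strongest hotspot counted as a start hotspot, the cyclin E genes were the weakest of the role. CCNE2, cyclin E2, had 3.11 in Saos-2 and 6.79 in U2OS, the largest rank difference of all 32 genes at 27.8 points. Its covered bases within 1 kb were 191 bp and 480 bp. CCNE2 has no listed start, and with a window of 500 bp around the ends of its span neither line had a start hotspot.

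CCNE1 (chr19:29811991-29824312) had no Saos-2 hotspot within 10 kb of its span and 3 in U2OS. The U2OS start hotspot at chr19:29811762-29811981 was 220 bp wide with a significance of 2.94, at percentile 29.8 of its list, and it ended just before the start. The other U2OS hotspots, at chr19:29810516-29810687 and chr19:29805615-29805871, had 2.95 and 7.11. All 3 were thus weak or moderate members of their list. Saos-2 hotspots were sparse around this gene as well: within 1 Mb on either side and beyond 10 kb of the span, Saos-2 had 9 and U2OS had 53. This ratio of 5.89 was met or exceeded by 79 of 19927 genes (0.396%), against a median of 1.24 for the 39 genes. The low number of Saos-2 hotspots around CCNE1 moved with the missing start hotspot, and its part in it was not tested.

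RRM2 (chr2:10122568-10211010) had a U2OS hotspot of 328 bp over its start, at chr2:10122506-10122833, with a significance of 11.7 and percentile 81.7 of the list. A smaller one of 67 bp and 1.68 lay just before it. Saos-2 had no hotspot within 1 kb of either listed start. The nearest Saos-2 hotspot was 79 bp wide at a significance of 1.46, close to the minimum, centred at −2191 bp from the start, where U2OS had one of 362 bp at 10.2. Saos-2 also had 1 of 93 bp at 1.90 deep inside the span, which U2OS lacked. RRM2 was therefore the gene with the strongest U2OS start hotspot among those that Saos-2 lacked. Hotspots in the surrounding 1 Mb on each side numbered 59 in Saos-2 and 92 in U2OS, a ratio of 1.56.

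The third such gene was FOXM1, the activator of mitotic genes, and its hotspot was slight. Its U2OS hotspot at the higher-coordinate end of the span, chr12:2877157-2877236, was 80 bp wide with a significance of 1.79, at percentile 7.69 of its list. Saos-2 had none within 10 kb of the span, and the surrounding hotspots numbered 42 in Saos-2 and 82 in U2OS. When the U2OS list was shortened to as many hotspots as Saos-2 has, FOXM1 lost its hotspot, and CCNE1 and RRM2 kept theirs. With the upper 50% of each list, CCNE1 lost its hotspot too, and CCNE2 and RRM2 were the genes left with one in U2OS only.

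**Figure D4:**
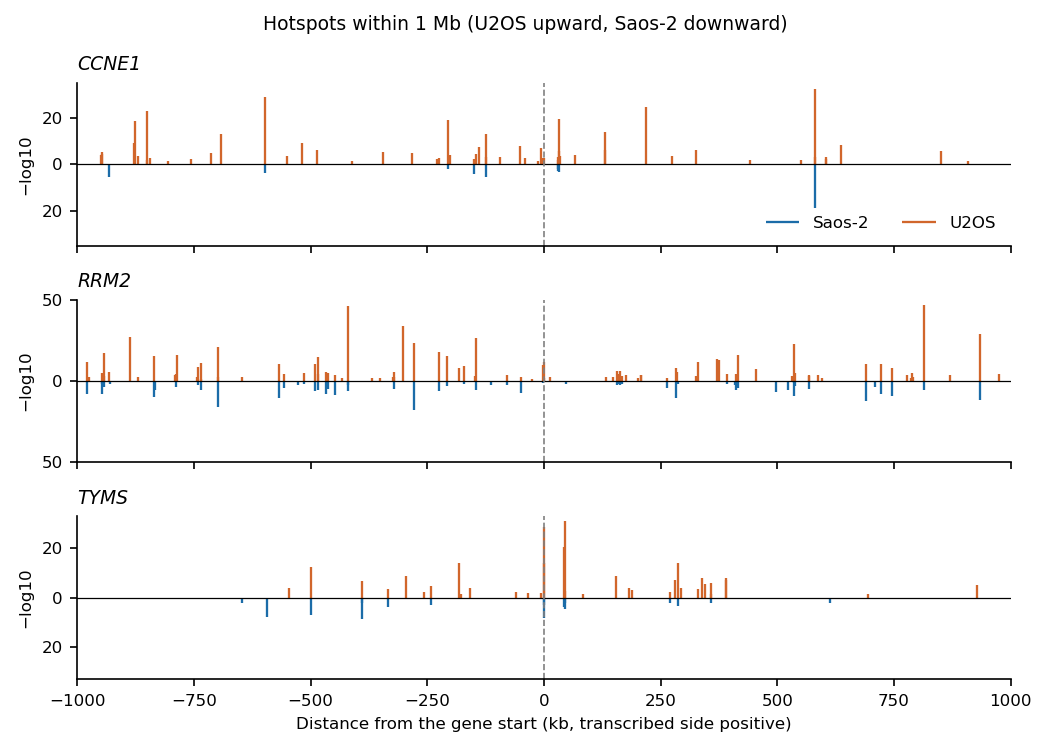
Vertical lines are hotspots within 1 Mb of the starts of CCNE1, RRM2 and TYMS (x axis, kb from the start, transcribed side positive), with the authors' significance (−log10) drawn upward for U2OS and downward for Saos-2. Around CCNE1 the Saos-2 side is nearly empty, with 9 hotspots beyond 10 kb of the gene against 53 in U2OS, while around RRM2 both sides are populated, with 59 and 92.

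In origin licensing and firing, 11 of 12 genes had overlapping start hotspots in both lines. The median significance was 14.1 in Saos-2 and 17.0 in U2OS. The helicase subunits ranged widely. MCM3 had 25.9 in Saos-2 and 85.2 in U2OS, the latter the highest of the 39 genes. MCM5 had 24.3 and 39.3, MCM6 15.5 and 26.3, MCM4 6.84 and 13.6 with a rank 14.1 points higher in U2OS, and MCM7 4.35 and 5.53. Covered bases of MCM7 within 1 kb were 401 bp in Saos-2 against 853 bp in U2OS, and those of MCM5 within 10 kb were 1194 bp against 845 bp. MCM2 was the exception to the direction among them, with 14.1 and 9.06, a rank difference of −16.0 points. MCM2 also had a Saos-2 hotspot of 396 bp at chr3:127591883-127592278, upstream of the gene, with a significance of 12.7. No U2OS hotspot overlapped it, and it was the strongest Saos-2 hotspot of that kind within 10 kb of the 39 genes. Within 10 kb of the MCM2 span, Saos-2 covered 1936 bp and U2OS 995 bp.

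The loading factors did not share a direction. ORC1 had 17.7 in Saos-2 and 17.0 in U2OS, ORC6 had 12.6 and 14.5, and MCM10, needed for origin firing, had 13.8 and 41.4. CDC45, which joins the MCM ring in the active helicase, had 22.4 and 50.2. CDC6, which helps load the ring, had 5.44 and 13.3, a rank 22.3 points higher in U2OS. Within 1 kb of its span CDC6 covered more bases in Saos-2, 644 bp against 382 bp, but within 1 kb of its start 291 bp and 382 bp. The rest in Saos-2 was a hotspot of 353 bp at the far end of the gene, which U2OS lacked. ORC1 covered 1187 bp in Saos-2 within 1 kb against 601 bp in U2OS, the largest surplus for Saos-2. CDT1 (chr16:88803789-88809258), printed above with its E2F words, had no hotspot within 1 kb in either line, and its only one within 10 kb was a U2OS hotspot of 217 bp at 2.92, beyond the far end of the gene.

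In DNA synthesis and nucleotide supply, 6 of 7 genes had start hotspots in both lines, with medians over these 6 of 8.78 in Saos-2 and 13.9 in U2OS. This role had the largest median rank difference, 10.6 points higher in U2OS. POLA1, the catalytic subunit of the primase polymerase, had 5.70 and 13.4, a rank 20.6 points higher in U2OS. Within 1 kb of its span 302 bp and 724 bp were covered, but within 1 kb of its start 302 bp and 447 bp. The rest in U2OS was a hotspot of 277 bp deep inside the gene. RRM1, the large subunit of ribonucleotide reductase, had 9.51 and 18.2, and TK1, thymidine kinase, had 7.67 and 14.5. PCNA, the sliding clamp, had 12.3 and 13.3, at a listed start inside its span, and 1721 bp and 1315 bp covered within 10 kb. POLE, the catalytic subunit of the leading-strand polymerase, went the other way, with 17.0 in Saos-2 and 9.75 in U2OS, a rank difference of −16.9 points.

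TYMS (chr18:657653-673578) differed most in covered bases. Saos-2 had a hotspot of 3.16 across the start (chr18:657459-657659) and a stronger one of 8.04 further in (chr18:658197-658529). U2OS had a hotspot of 13.9 across the start (chr18:657309-657818) and one of 928 bp at 28.4 directly after it (chr18:657824-658751). Covered bases within 1 kb of the span were 534 bp in Saos-2 against 1438 bp in U2OS, and the rank of the strongest start hotspot was 20.0 points higher in U2OS. Both lines were thus open at the start, and U2OS over a longer stretch. Surrounding hotspots numbered 14 in Saos-2 and 35 in U2OS, a ratio of 2.5, and the part of this in the TYMS difference was not tested.

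Among the late-cycle and mitotic genes, rank differences ran from −16.3 to 11.5 points, with a median of 1.54 points over 7 genes. CCNB1, cyclin B1, had 16.8 in Saos-2 and 18.1 in U2OS, and its kinase CDK1 had 26.9 and 25.1. TOP2A had 27.1 and 55.2. AURKA, a mitotic kinase, had 20.7 and 80.1 at the higher-coordinate end of its span, both within the strongest 10% of their lists. BUB1, of the spindle checkpoint, had 7.57 and 14.1, and MKI67, the gene of the proliferation antigen Ki-67, had 8.94 and 14.3. PLK1 had 13.0 and 8.54, the lowest rank difference of the role, and BUB1 had the highest. MYBL2 (chr20:43667114-43716482), which carries cells into the mitotic programme, had no hotspot within 1 kb of its start, but Saos-2 had one of 217 bp at 4.31, centred 2424 bp inside the gene, that U2OS lacked. AURKB (chr17:8204731-8210575), a kinase of chromosome segregation, had no hotspot in either line within 10 kb of its span.

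Covered bases were counted over the whole gene with 1 kb on each side, and with 10 kb on each side. At 1 kb, the 39 genes held 18678 bp in Saos-2 against 22531 bp in U2OS, a ratio of 1.21, and at 10 kb 24884 bp and 28577 bp, a ratio of 1.15, where the lists as wholes stood at 1.25. More bases were covered in U2OS at 25 genes and in Saos-2 at 12 within 1 kb, against 45.7% and 29.6% of all genes. At 10 kb the counts were 25 and 13, against 52.7% and 32.8%. These shares of all genes include genes with no covered base in either line. Among the 39, only CDT1 and AURKB were such genes at 1 kb, and AURKB at 10 kb. Of 15119 genes with any covered base within 1 kb, 9149 had more in U2OS and 5940 in Saos-2. Within 10 kb these were 10558 and 6579 of 17158 genes.

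At least 2-fold more bases within 1 kb were covered in U2OS at 7 of 39 genes, CCNE1, CCNE2, MCM7, POLA1, RRM2, TYMS and FOXM1, against 20.9% of all genes and 27.7% of those with any covered base. In Saos-2 this held for MYBL2 alone, against 10.2% and 13.6%. Within 10 kb the U2OS genes were again 7, with CDT1 in place of MCM7, against 24.3% and 28.3%, and MYBL2 was again the Saos-2 gene, against 10.8% and 12.6%. Just inside the 2-fold limit at 1 kb were POLA1 at 2.40 and MCM7 at 2.13, and just outside it E2F8 at 1.91 and, toward Saos-2, ORC1 at 1.98. When each line's covered bases were divided by its list total, the split at 1 kb became 5 for U2OS (CCNE1, CCNE2, RRM2, TYMS and FOXM1, against 17.4% of all genes) and 5 for Saos-2 (CDC25A, CDC6, MCM2, ORC1 and MYBL2, against 13.7%). At 10 kb it became 6 and 3, against 19.6% and 14.8%. In each of these counts the share of the 39 genes past the limit was below that of all genes, and the surplus toward U2OS seen in unscaled bases at 1 kb was gone after scaling.

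**Figure D5:**
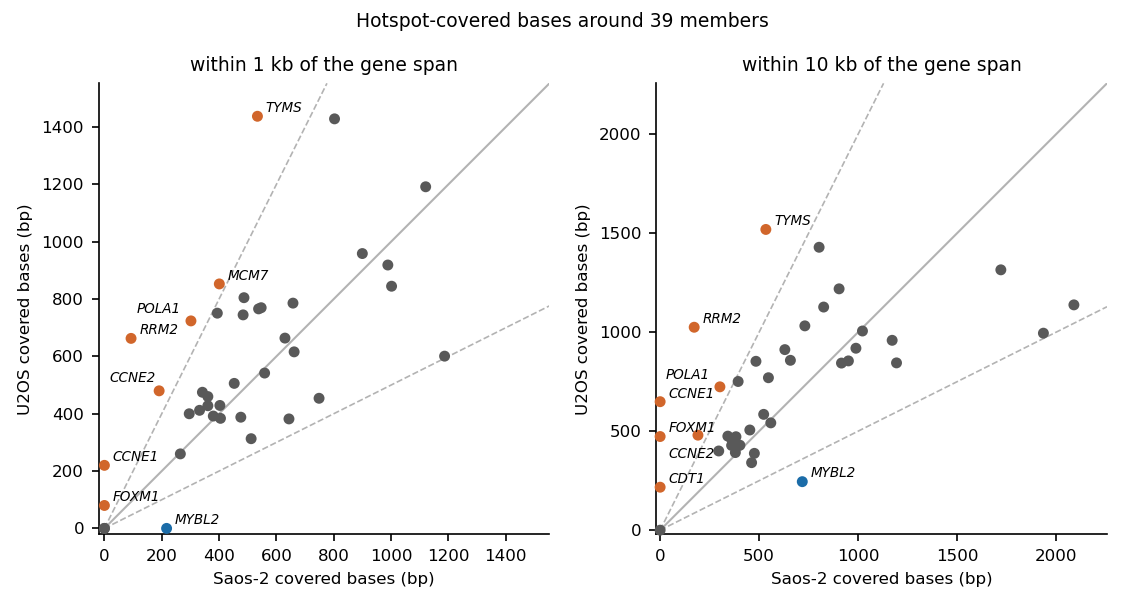
Each point is 1 of the 39 genes, with its hotspot-covered bases in Saos-2 (x axis, bp) and U2OS (y axis, bp) within 1 kb (left) and 10 kb (right) of the gene span, a solid line at equal coverage, dashed lines at 2-fold, and colour for genes past 2-fold in U2OS (orange) or Saos-2 (blue). Points lie on both sides of the solid line, and at 10 kb TYMS (534 and 1519 bp) and RRM2 (172 and 1025 bp) are furthest above it and ORC1 (2090 and 1138 bp) and MCM2 (1936 and 995 bp) furthest below it.

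Overlap between the lines was also counted by place, beside the same count over all protein-coding genes, gene by gene. Of the Saos-2 hotspots within 10 kb of the 39 genes, 40 of 42 at starts (95.2%, interval 84.2 to 98.7, against 81.3% over all genes) were overlapped in U2OS, 4 of 10 elsewhere inside the genes (against 50.7%) and 15 of 24 in the flanks (against 66.7%). Of the U2OS hotspots, 41 of 50 at starts (82%, interval 69.2 to 90.2, against 71.8%), 4 of 11 inside genes (against 43.8%) and 16 of 27 in flanks (against 55.5%) were overlapped in Saos-2. In both sets of genes the starts had the highest overlap and the insides of genes the lowest. Median significance was also higher at starts, 9.23 in Saos-2 and 12.5 in U2OS, than inside genes, 3.76 and 4.26. Over all genes these medians were 5.53 and 6.53 at starts and 3.81 and 4.40 inside genes.

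Most E2F words of these genes lay under hotspots of both lines. Of 33 E2F words in the promoter windows of 17 genes, 29 lay within hotspots in both lines, 0 in 1 line only and 4 in neither, the last being in CDT1, E2F2 and RRM1. Merged where they overlap, these are 23 separate stretches, of which 19 lay within hotspots in both lines, against 41.5% of such stretches over all promoters. None of the 23 lay within a hotspot in 1 line only, which allows a share of up to 13.0%, and over all promoters the share was 10.4% for U2OS alone and 5.55% for Saos-2 alone, both within that limit. Of 13 CHR words, 12 lay within hotspots in both lines and 1, in RRM1, in neither, where all promoters had 18.2% in both, 4.77% in U2OS alone and 3.2% in Saos-2 alone. Of 65 CCAAT stretches, 58 lay within hotspots in both lines, 6 in U2OS only, all at MCM7 and RRM2, and 1, at AURKB, in neither, where all promoters had 42.6% in both, 6.06% in U2OS only and 3.53% in Saos-2 only. The promoters of these genes lie under hotspots more often than promoters at large, as the start counts above give, so these shares are not independent of those counts.

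Other genes of the pathway, which are not among the 39, were counted in the same way. Of 13 genes for E2F, DP, RB and MuvB proteins, 9 had start hotspots in both lines, and E2F4 and RBL1, which encode a repressive E2F and its pocket-protein partner, in U2OS only. The E2F4 hotspot was weak at 2.08, and that of RBL1 was 12.9. Surrounding hotspots numbered 16 in Saos-2 and 59 in U2OS at RBL1, and 63 and 85 at E2F4, and the part of this was not tested. Among the 9, the start hotspots of RBL2 did not overlap between the lines. RB1 itself and LIN54 had none at their listed starts, but those starts lie inside the genes, 172.7 kb from the upstream end of the span for RB1, and both genes had hotspots within 1 kb of an end of the span in both lines. Of 34 further replication genes, 25 had start hotspots in both lines, CHAF1B, DUT, RPA3 and UHRF1 in Saos-2 only, GINS3, PRIM1 and RFC4 in U2OS only, and POLE2 and RNASEH2A in neither. The Saos-2 hotspots were at 2.84, 2.77, 6.36 and 3.61. UHRF1 too has listed starts inside the gene, 6.42 kb from the upstream end of its span. Neither line had a hotspot within 1 kb of an end of that span. RPA3 has no listed start, and its Saos-2 hotspot lay outside the span, past its higher-coordinate end. Around CHAF1B, surrounding hotspots numbered 81 in Saos-2 and 35 in U2OS, and the part of this was not tested. Of 18 further mitotic genes, 17 had them in both, and CDC25B in U2OS only, at 6.15. Over the 3 lists together, 51 of 65 genes had them in both lines, against 43.3% of all genes. In U2OS alone there were 6, against 10.1%, and in Saos-2 alone 4, against 4.79%. Start hotspots in either line were found at 61 of the 65, and among all such genes 17.4% had one in U2OS only and 8.23% in Saos-2 only. Replication genes counted with a start hotspot in Saos-2 alone thus occur beyond the 39, with the limits given for UHRF1, RPA3 and CHAF1B.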

How the data were processed

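DNase-seq was measured in 1 Saos-2 and 1 U2OS library. Reads were handled with Trimmomatic 0.38 and BWA 0.7.15 on hg38, per the submitters' processing notes, and the caller of the hotspots is not given in the sources used here. The deposited lists, 1 for each library, give hotspots at a false discovery rate of 0.05, and the authors' −log10 value was taken as the significance of each hotspot, since its minimum is the −log10 of that rate. The deposited score column is 10 times that value and was not used. The lists have no header naming either column.

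Each deposited hotspot start was raised by 1 bp, so that positions given here are 1-based with both ends included. Overlap meant at least 1 bp. Gene spans and promoter sequences came from RefSeq tables on GRCh38.p14, whose main chromosomes are those of hg38. Of 20037 protein-coding genes, 15842 had listed starts, and both ends of the span were used for the other 4195. In 1274 of the genes with listed starts none lies within 1 kb of the upstream end of the span. Start hotspots, covered bases within 1 kb and 10 kb, ranks within a list, surrounding hotspots and motif words were computed in Python 3.11.15 with pandas 2.3.3 and numpy 2.4.6, after a test on simulated data. A 2-fold call counts a gene with bases in 1 line only. Wilson 95% intervals (statsmodels 0.14.6) cover counting error only. No test between lines was possible with 1 library each, and depth is unknown.

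More values were given for genes with a start hotspot in 1 line or neither, for the 5 in each direction with the largest differences in covered bases and in rank, and for the strongest hotspots the other line lacked, and the other members by shorter values. The genes and lists were chosen with earlier results of these data known. The alternatives were shorter or filtered hotspot lists, merged hotspots, other start windows, a stricter fold, a stricter overlap and scaling by the list total. A marker gene of the osteoblast list is not reported here.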

Additional observations from a re-analysis of the deposited data

How the results depend on the processing

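No paired analysis was possible because each line has 1 library, and no replicate could be left out. Of 88 values recomputed under an alternative, 74 kept within 1.5 times of the reported count, or, for the median rank difference, within its interval, and 14 moved. The cause was not tested. The median rank difference, reported as 2.28 points, ran from 1.53 with the shortened U2OS list to 4.16 with the upper 50% of each list. The number of genes with at least 2-fold more covered bases within 1 kb moved for Saos-2, reported as 1, to 2 with the upper 50% of each list, 2 with hotspots less than 150 bp apart merged, 2 with hotspots of at least 200 bp and 5 with bases divided by the list total. For U2OS, reported as 7, it moved to 4 with the upper 50% and 3 at 3-fold. Within 10 kb it moved for Saos-2, reported as 1, to 2 with the U2OS list shortened to the Saos-2 number, 5 with the upper 50%, 2 with hotspots of at least 200 bp, 0 at 3-fold and 3 with bases divided by the list total. For U2OS, reported as 7, it moved to 4 at 3-fold. Start hotspots in Saos-2 only went from 0 to 1, MYBL2, with a start window of 2.5 kb. E2F words within hotspots in U2OS only went from 0 to 1 with the upper 50% of each list. Alternatives of 2 kinds, the genes with a listed start alone and the changed lists for E2F words, were chosen after seeing the data. The genes with a start hotspot in U2OS only were RRM2 and CCNE2 with the upper 50% and CCNE1 and FOXM1 with the 2.5 kb window, so these names depend on the setting more than their count does. Depth is unknown from the lists, so no limit from it can be given.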

Other observations

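The promoters without a start hotspot in Saos-2 included some of the most GC-rich of the 32 genes with a promoter sequence. GC content of the window from 250 bases before to 50 bases after the start was 81% at CCNE1, 75.3% at MYBL2, 74.3% at CDT1 and 78.3% and 72.3% at the 2 listed starts of RRM2. It was 59.7% at E2F2 and 63.7% and 62.7% at AURKB. The median over the genes with a promoter sequence was 65.8%, and 62.3% over all protein-coding genes. Other promoters of high GC content had start hotspots in both lines: 77.3% at a listed start of E2F3, 73.7% at POLE, 73.3% at E2F1 and 72% at TYMS. Over all genes, the share with start hotspots in both lines was 47.9% at a GC content of 50 to 60%, 58.3% at 60 to 70% and 47.9% at 70% or above. The share in U2OS only was 7.74%, 9.75% and 13.9% in these classes, and that in Saos-2 only 4.01%, 4.85% and 6.56%, so both were highest in the most GC-rich class. The part of base composition in the differences between the lines was not tested.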
